A study of Mus musculus with 5 samples.

Results

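The genes described here are 49 listed genes of the cell division cycle, measured by array in whole esophagus of mice in which the cytokine IL-13 can be switched on. They were listed by name, with no threshold on their values, but with earlier results of these data known. They comprise 15 genes of S phase, 31 genes of G2 and mitosis (G2/M), and 3 genes of G1 or of cyclin-dependent kinase (CDK) inhibition. Each gene was read through the probe sets that the array's annotation gives to that single symbol. Of the 49 genes 48 had such a probe set, with 113 probe sets in all, out of 18193 genes and 45101 probe sets on the array. Ccnb1 had none, so no expression value is given for it. No filter on low values was applied, so all 48 measured genes entered the test.

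The mice carried the CC10-rtTA and tetON-IL-13 transgenes on the FVB/N background and were 3 to 4 months old. The CC10 promoter is active in club cells of the airway and drives a transactivator that turns on the IL-13 transgene in the presence of doxycycline. Mice of the Dox group (n = 3 arrays) received a diet with doxycycline, and mice of the NoDox group (n = 2 arrays) a regular diet. Both groups carried both transgenes. Mice without the transgenes on doxycycline were not analysed here, so an effect of the drug itself and an effect of IL-13 cannot be told apart. Whether the arrays came from different mice is not stated in the labels, and the p-values thus speak only of the scatter among these arrays, which may be technical. Each value is the signal of a probe set divided by the mean signal of the 2 NoDox arrays, so 1 is the NoDox mean.

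A dividing cell copies its DNA in S phase and distributes the copies in mitosis. Genes for replication, such as those of the MCM helicase, are switched on before S phase by E2F transcription factors, whereas genes for mitosis are switched on later, through CHR and CCAAT promoter elements that the MuvB complexes and NF-Y bind. In the squamous lining of the esophagus, division normally takes place in the basal cell layers, and cells that move upward stop dividing.

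Promoters of members that the results turn on are shown first, to set mitosis genes beside replication genes. Each sequence is the 150 bases just before the transcription start given by RefSeq (GRCm38.p6), read 5' to 3' on the strand of the gene. The genes lie as follows: Cenpa at chr5:30666736-30666885 on the plus strand, Kif2c at chr4:117178773-117178922 on the minus strand, Ccnb2 at chr9:70421555-70421704 on the minus strand, Ube2c at chr2:164769779-164769928 on the plus strand, Birc5 at chr11:117849087-117849236 on the plus strand, Cdc20 at chr4:118437344-118437493 on the minus strand, Mcm6 at chr1:128359706-128359855 on the minus strand and Cdc6 at chr11:98908001-98908150 on the plus strand. Capitals mark the CHR letters TTTGAA or TTCGAA, the letters CCAAT, and the E2F letters TTTCCCGC, TTTCGCGC, TTTGCCGC or TTTGGCGC, on either strand.
Cenpa: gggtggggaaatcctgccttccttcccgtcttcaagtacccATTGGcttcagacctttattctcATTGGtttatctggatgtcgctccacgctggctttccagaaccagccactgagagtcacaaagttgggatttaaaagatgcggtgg
Kif2c: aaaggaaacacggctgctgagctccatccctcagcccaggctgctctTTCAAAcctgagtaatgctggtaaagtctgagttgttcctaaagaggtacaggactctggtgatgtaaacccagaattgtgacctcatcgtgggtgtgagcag
Ccnb2: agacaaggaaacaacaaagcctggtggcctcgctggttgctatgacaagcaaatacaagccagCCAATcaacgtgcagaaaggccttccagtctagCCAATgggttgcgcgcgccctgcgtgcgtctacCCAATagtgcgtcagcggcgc
Ube2c: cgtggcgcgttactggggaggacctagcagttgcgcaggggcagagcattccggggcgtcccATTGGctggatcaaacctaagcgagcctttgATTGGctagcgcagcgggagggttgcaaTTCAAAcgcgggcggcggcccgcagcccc
Birc5: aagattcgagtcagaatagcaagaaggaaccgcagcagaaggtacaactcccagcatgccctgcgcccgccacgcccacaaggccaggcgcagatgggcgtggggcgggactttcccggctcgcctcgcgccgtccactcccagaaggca
Cdc20: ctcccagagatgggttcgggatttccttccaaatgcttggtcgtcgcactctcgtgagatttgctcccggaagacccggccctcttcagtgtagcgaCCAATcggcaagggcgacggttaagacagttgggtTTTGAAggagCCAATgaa
Mcm6: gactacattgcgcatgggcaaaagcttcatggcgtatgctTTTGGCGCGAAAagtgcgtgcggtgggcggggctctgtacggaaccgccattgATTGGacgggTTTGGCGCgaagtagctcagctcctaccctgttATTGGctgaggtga
Cdc6: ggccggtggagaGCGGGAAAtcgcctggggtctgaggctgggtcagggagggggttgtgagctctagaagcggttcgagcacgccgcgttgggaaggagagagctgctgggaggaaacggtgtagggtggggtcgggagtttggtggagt
Birc5 had 0 matches in this stretch. In Cdc20 the CHR letters began 18 bases before the start and CCAAT letters lay on both sides of them, at 53 and 8 bases. Ccnb2 had 3 evenly placed CCAAT matches, beginning 87, 54 and 21 bases before the start. The first E2F match of Mcm6, beginning 110 bases before the start, overlaps another at 106.

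Over the 250 bases before the start, CCAAT was found in 22 of the 25 G2/M members with a promoter in the table (88.0%), among them Ccnb1, in 8 of 13 S phase members (61.5%) and in 37.5% of all 27025 genes. A CHR match was found in 12 of 25 G2/M members (48.0%), 2 of 13 S phase members (15.4%) and 19.6% of all genes. CHR and CCAAT stood together in 11 of 25 G2/M members (44.0%) and in 7.93% of all genes. The E2F letters were found in 4 of 13 S phase members (30.8%), in 1 of 25 G2/M members and in 2.16% of all genes. These shares describe letters, not bound sites, and were not tested.

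Genes of G2 and mitosis were higher in the Dox arrays as a group of values, and genes of S phase were not. Of the 30 measured G2/M members 29 had a log2 fold change (Dox over NoDox) above 0, as had 42.6% of all genes, and their median was 0.54, with quartiles of 0.37 and 0.75. All 3 Dox arrays lay above both NoDox arrays for 25 of the 30, as they did for 13.8% of all genes. Of the 15 S phase members 6 were above 0 and 9 below, where 57.4% of all genes lay, the median was -0.23, and for 0 of them did all Dox arrays lie above both NoDox arrays. The median over all genes was -0.08.

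Only 2 members passed the test on their own. The centromeric histone gene Cenpa and the microtubule-depolymerising kinesin gene Kif2c rose, at an adjusted p under 0.05 by limma with Benjamini-Hochberg adjustment over all genes, a threshold that 1.35% of all genes passed upward and 1.16% downward. By the same test 0 members fell. At an unadjusted p under 0.05, 14 of 30 G2/M members were higher and 0 lower, against 6.82% of all genes higher and 10.3% lower, and 2 of 15 S phase members were lower and 0 higher. In bulk tissue, a change in the share of dividing cells and a change of RNA per cell cannot be told apart.

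**Figure D1:**
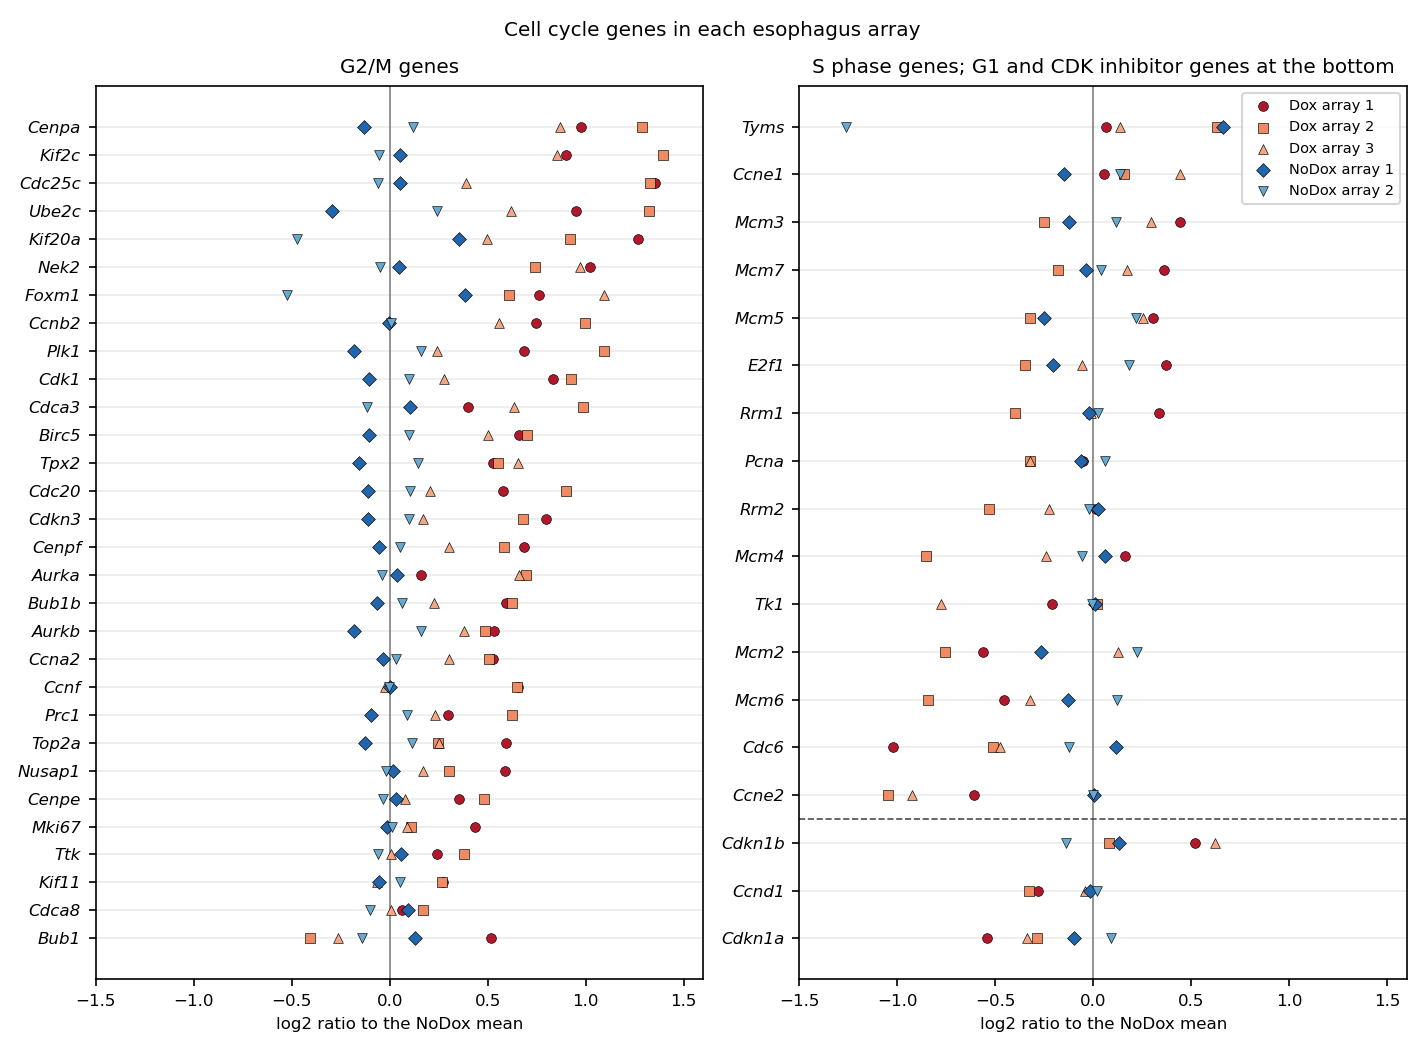
Log2 ratio to the NoDox mean (x axis) of each measured member (rows) in each of the 3 Dox and 2 NoDox arrays (points). The red and orange Dox points of most G2/M genes lie to the right of both blue NoDox points, from which Bub1 at the bottom departs, while the Dox points of the S phase genes lie on both sides of 0.

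Cenpa, which encodes the histone H3 variant that marks centromeres, had ratios of 1.97, 2.44 and 1.83 in the Dox arrays and of 0.913 and 1.09 in the NoDox arrays. All Dox arrays were well above both NoDox arrays, with the second Dox array highest. Its log2 fold change was 1.05 ± 0.18 (SE, 3 against 2 arrays; limma with Benjamini-Hochberg adjustment, adjusted p = 0.0199). Kif2c, which takes tubulin off microtubule ends at kinetochores, had ratios of 1.86, 2.63 and 1.81 in the Dox arrays and of 1.04 and 0.962 in the NoDox arrays. Again the groups did not overlap and the second Dox array was highest. Its log2 fold change was 1.05 ± 0.22 (SE; limma with Benjamini-Hochberg adjustment, adjusted p = 0.0477). The call of Cenpa held in 2 of the 5 fits that each left out 1 array, without the first or the second Dox array, and reached an adjusted p of 0.253 without the first NoDox array. That of Kif2c held only without the second Dox array, and reached 0.329 without the second NoDox array.

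Genes that drive the entry into mitosis were next. Ccnb2, a cyclin that activates CDK1, had ratios of 1.68, 2.00 and 1.47 in the Dox arrays and of 0.996 and 1.004 in the NoDox arrays. The NoDox arrays were nearly equal and all Dox arrays higher, but the log2 fold change of 0.77 ± 0.18 (SE) did not pass (limma with Benjamini-Hochberg adjustment, adjusted p = 0.0624). Cdk1, the mitotic kinase itself, had ratios of 1.78, 1.90 and 1.21 against 0.928 and 1.07, with the third Dox array nearest to the NoDox arrays. Its log2 fold change was 0.68 ± 0.22 (SE; limma adjusted p = 0.151).

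Ccna2, the cyclin of S and G2 phase, had ratios of 1.44, 1.42 and 1.23 against 0.976 and 1.02, without overlap, and a log2 fold change of 0.45 ± 0.15 (SE; limma adjusted p = 0.161). Foxm1 encodes the transcription factor that activates many G2/M genes. Its ratios were 1.69, 1.52 and 2.14 in the Dox arrays and 1.30 and 0.696 in the NoDox arrays. The groups did not overlap, but the NoDox arrays lay far apart and the third Dox array was highest, unlike in most G2/M members. The log2 fold change of Foxm1 was 0.89 ± 0.31 (SE; limma adjusted p = 0.187). Its other probe sets were at 0.16, 1.74 and -0.28. The one at 0.16 had a signal level of 594 units, near the 620 of the probe set used.

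Genes that act at the spindle and at the end of mitosis gave similar values. Ube2c, the ubiquitin-conjugating enzyme of the anaphase-promoting complex, had ratios of 1.93, 2.502 and 1.54 in the Dox arrays and of 0.817 and 1.18 in the NoDox arrays. The third Dox array was the lowest of the group and still above both NoDox arrays. The log2 fold change was 0.99 ± 0.23 (SE; limma adjusted p = 0.0658). Birc5, the survivin subunit of the chromosomal passenger complex, had ratios of 1.58, 1.62 and 1.42 against 0.931 and 1.07. Its Dox arrays lay close together, and its log2 fold change was 0.62 ± 0.16 (SE; limma adjusted p = 0.0798).

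Nek2, a kinase that separates the centrosomes, had ratios of 2.03, 1.67 and 1.96 against 1.03 and 0.967, without overlap, and a log2 fold change of 0.91 ± 0.31 (SE; limma adjusted p = 0.176). Cdca3, which helps to trigger mitotic entry, had ratios of 1.32, 1.98 and 1.55 against 1.08 and 0.924. The groups again did not overlap, and the log2 fold change was 0.68 ± 0.23 (SE; limma adjusted p = 0.181). The other G2/M members ranged from -0.04 for the checkpoint kinase gene Bub1 to 1.02 for the phosphatase gene Cdc25c. Mki67 and Top2a, widely used as markers of dividing cells, were at 0.21 ± 0.15 and 0.37 ± 0.16 (SE) and did not pass. The other probe sets of Top2a were at -0.16 and 0.05. Kif11 was at 0.16, with its other probe sets at -0.17 and -0.23. The 5 G2/M members whose Dox arrays were not all above both NoDox arrays were Ccnf, Ttk, Cdca8, Kif11 and Bub1.

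Among the S phase members the 2 smallest p-values belonged to genes with lower values. Ccne2, a cyclin that starts S phase with CDK2, had ratios of 0.656, 0.483 and 0.526 in the Dox arrays and of 1.002 and 0.998 in the NoDox arrays. All Dox arrays were clearly lower, but the log2 fold change of -0.86 ± 0.27 (SE) did not pass (limma with Benjamini-Hochberg adjustment, adjusted p = 0.146). Mcm6, a subunit of the replicative helicase, had ratios of 0.729, 0.558 and 0.799 against 0.914 and 1.09, without overlap. Its log2 fold change was -0.54 ± 0.18 (SE; limma adjusted p = 0.177). Its other probe sets were at -0.23 and 0.67, and with the mean of all of them Mcm6 was at -0.03 (adjusted p = 0.982). Cdc6, which loads that helicase onto origins, was the other S phase gene with all Dox arrays below both NoDox arrays, an order that 21.8% of all genes had, and stood at -0.66 ± 0.37 (SE).

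The other S phase members ranged from -0.38 for Mcm2 to 0.58 for Tyms, the enzyme that makes thymidylate, whose NoDox arrays differed most widely, at 1.58 and 0.417. Pcna, the sliding clamp of the replication fork, was at -0.23 ± 0.14 (SE). The related cyclin gene Ccne1 was at 0.22, on the other side of 0 from Ccne2. All 6 MCM genes were lowest in the second Dox array among the Dox arrays, where their median log2 ratio was -0.54, against 0.23 and 0.15 in the other two.

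Among the G1 and CDK inhibitor genes, Cdkn1a encodes p21, which halts the cycle after DNA damage. All Dox arrays lay below both NoDox arrays for Cdkn1a, as they did for Ccnd1 and for 21.8% of all genes. The log2 fold change of Cdkn1a was -0.39 ± 0.14 (SE; limma adjusted p = 0.212). Ccnd1, the G1 cyclin that answers growth signals, was at -0.22 ± 0.14 and Cdkn1b, which encodes p27, at 0.41 ± 0.19 (SE), and neither passed.

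The separation of the phases was seen in each Dox array, but its size was not the same. The median log2 ratio of the G2/M members was 0.59, 0.64 and 0.29 in Dox arrays 1, 2 and 3, and -0.02 and 0.02 in the NoDox arrays. That of the S phase members was 0.05, -0.35 and -0.06 in the Dox arrays and -0.04 and 0.04 in the NoDox arrays. The G2/M median thus exceeded the S phase median by 0.54, 0.99 and 0.34 in the Dox arrays, and differed from it by 0.01 and -0.01 in the NoDox arrays, whose values mirror each other because they sum to 2 by construction and so count as 1 observation. The medians of the fold changes differed by 0.77, with a standard deviation over the 3 Dox arrays of 0.33 for the difference. No p is given, since with 3 and 2 arrays the smallest exact permutation p is 0.1.

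**Figure D2:**
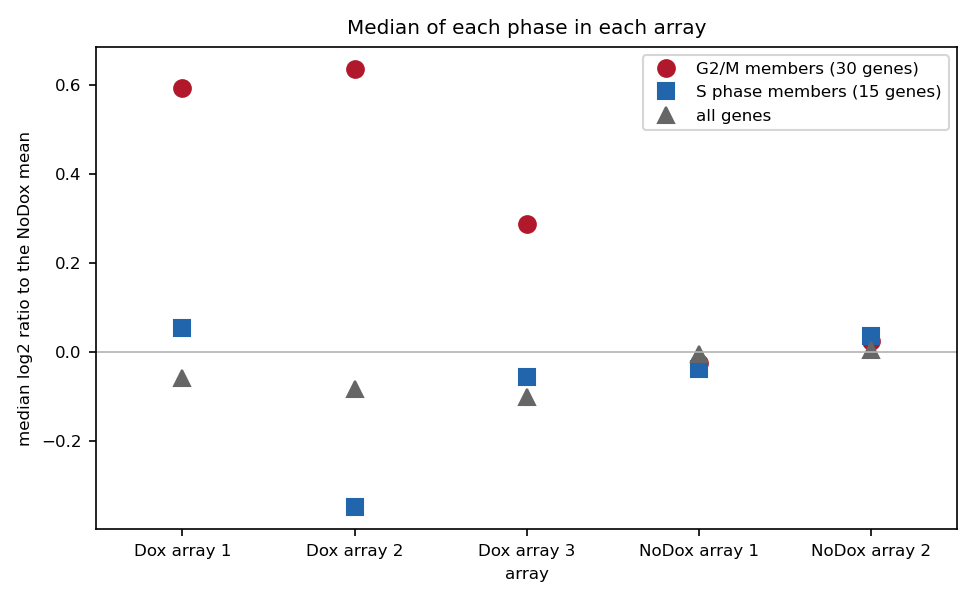
Median log2 ratio to the NoDox mean (y axis) of the 30 G2/M members, the 15 S phase members and all genes in each array (x axis). The G2/M circles stand at 0.59, 0.64 and 0.29 in the Dox arrays, above the S phase squares in each of them, and all symbols meet near 0 in the NoDox arrays.

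The third Dox array held the lowest of the Dox values for 23 of 30 G2/M members (76.7%), as it did for 32% of all genes. The second Dox array held the lowest for 10 of 15 S phase members (66.7%), against 39% of all genes. The third Dox array also carried the highest values of leukocyte markers. The median ratio of 6 genes of all leukocytes was 2.61, 1.94 and 4.40 in the Dox arrays, and that of 6 B and plasma cell genes 1.75, 1.71 and 14.0. The part of these cells in the G2/M values was not tested.

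Cells other than the resident lining could carry cell cycle transcripts, so marker lists were read beside the members. Of 6 genes listed for hyperproliferative keratinocytes 5 rose, namely the keratin genes Krt6a, Krt6b and Krt16, and S100a8 and S100a9. The last 2 are not keratin genes, and which cells carried them was not tested. Krt17 of the same list did not, at a log2 fold change of -0.49 ± 0.44 (SE). The sums over all 6 were 49158 to 74702 signal units in the Dox arrays and 10209 to 10230 in the NoDox arrays. Of 8 basal keratinocyte genes 0 passed the test in limma, with 1 higher and 2 lower at an unadjusted p under 0.05 and sums of 31591 to 38084 against 34229 to 35830. Of 6 genes of all leukocytes 2 rose (sums of 30207 to 76658 against 15354 to 17119), as did 3 of 6 macrophage genes (23894 to 28819 against 15015 to 15038) and 1 of 6 B and plasma cell genes (9584 to 73862 against 5072 to 5587). Of 9 measured T cell and thymocyte genes 0 passed in limma, and 0 at an unadjusted p under 0.05, with sums of 1499 to 2007 against 1953 to 2525. The sums take a lower bound where the level of a probe set could not be recovered. Levels were recovered for 1 of the 6 hyperproliferative, 1 of the 8 basal, 0 of the 6 leukocyte and 3 of the 6 macrophage genes. For B and plasma cells it was 4 of 6 genes, and for T cells 8 of 9. The bounds also set the weight of such a gene in its sum, so these sums are not total levels. No marker was listed at 0, but the thymocyte gene Rag1 stood at the lowest deposited value, 0.01, in the second Dox array.

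The tissue itself carried other signals. Of 8 lung genes 5 rose, among them the surfactant gene Sftpc, with sums of 35016 to 87286 against 11538 to 13088, and the median ratio of that list was 4.59, 3.26 and 8.08 in the Dox arrays. Of 7 skeletal muscle genes 2 fell, with sums of 17307 to 21498 against 35000.0 to 36746. These sums too rest mostly on bounds, with levels recovered for 3 of the 8 lung and 0 of the 7 muscle genes. Genes of the suprabasal squamous lining, such as Krt4 and Krt13, were present, and 0 of 7 passed in limma, with 1 lower at an unadjusted p under 0.05. Of 4 erythroid, 5 smooth muscle and 5 fibroblast genes 0 passed in limma, with 1, 3 and 1 lower at an unadjusted p under 0.05, and of 5 endothelial genes 0 passed, with 1 higher. Relative ratios of 3' to 5' control probe sets, a sign of RNA quality, were 1.08, 1.10 and 1.18 for beta-actin in the Dox arrays, against 1.002 and 0.999 in the NoDox arrays, and 0.993, 1.02 and 1.08 against 1.01 and 0.988 for Gapdh. The part of these differences in the cell cycle values was not tested.

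Further cell cycle genes were listed from general knowledge, with earlier results of these data known, so they are not independent of the members. Of 59 other measured G2/M genes 3 rose, where 1.35% of all genes did, and 0 fell. Of them 40 were above 0 (67.8%, against 42.6% of all genes) and 19 below, and the median was 0.23, between that of all genes (-0.08) and the members' 0.54. Kif22, a kinesin that carries chromosome arms, had ratios of 2.11, 2.25 and 1.91 in the Dox arrays and of 0.916 and 1.08 in the NoDox arrays. All Dox arrays were close together and well above the NoDox arrays, with a log2 fold change of 1.07 ± 0.15 (SE; limma with Benjamini-Hochberg adjustment, adjusted p = 0.00784). Incenp, the scaffold of the chromosomal passenger complex, rose by 0.84 ± 0.14 (SE; limma adjusted p = 0.0173), and Cks1b, a small partner of CDKs, by 0.78 ± 0.14 (SE; limma adjusted p = 0.0284). With the mean of its 5 probe sets Incenp was at 0.01 (adjusted p = 0.988), its other probe sets being at 0.55, 0.04, -0.14 and -1.24. All Dox arrays lay above both NoDox arrays for 14 of the 59 genes (23.7%), against 13.8% of all genes.

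Of 48 other measured S phase genes 0 rose and 0 fell in limma, with 0 higher and 6 lower (12.5%) at an unadjusted p under 0.05, near the 10.3% of all genes that were lower. Of them 13 were above 0, and the median was -0.22. The smallest p-values belonged to Dut, which removes dUTP, at -0.58 ± 0.18, Tipin, of the fork protection complex, at -0.57 ± 0.18, and Pola1, of the primase-polymerase, at -0.58 ± 0.19 (SE). In these 3 genes all Dox arrays were below both NoDox arrays, as in 9 of the 48 (18.8%), which is no more than the 21.8% of all genes. The second Dox array was lowest among the Dox arrays for 29 of the 48, as for the S phase members.

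Of 29 other measured genes of G1 cyclins, CDKs, pocket proteins, inhibitors and related regulators, 0 rose and 2 fell, where 1.35% and 1.16% of all genes did. Ccnd2, a G1 cyclin, had ratios of 0.397, 0.644 and 0.495 in the Dox arrays and of 0.942 and 1.06 in the NoDox arrays, and fell by 0.99 on the log2 scale (SE 0.20; limma with Benjamini-Hochberg adjustment, adjusted p = 0.0374). Wee1, the kinase that holds CDK1 inactive before mitosis, had ratios of 0.538, 0.372 and 0.566 against 1.12 and 0.881, and fell by 1.04 on the log2 scale (SE 0.22; limma adjusted p = 0.0444). In both genes the groups did not overlap. The CDK4 and CDK6 inhibitor gene Cdkn2b was at 0.73 ± 0.18 (SE; limma adjusted p = 0.0726). Of 63 listed replication-dependent histone genes 9 were measured, and 0 passed in limma, with 0 at an unadjusted p under 0.05. Their median was -0.05, and the smallest p-values were those of H1f4 (-2.05 ± 1.02), H2bc18 (0.25 ± 0.22) and H2bc21 (-0.22 ± 0.23, SE).

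**Figure D3:**
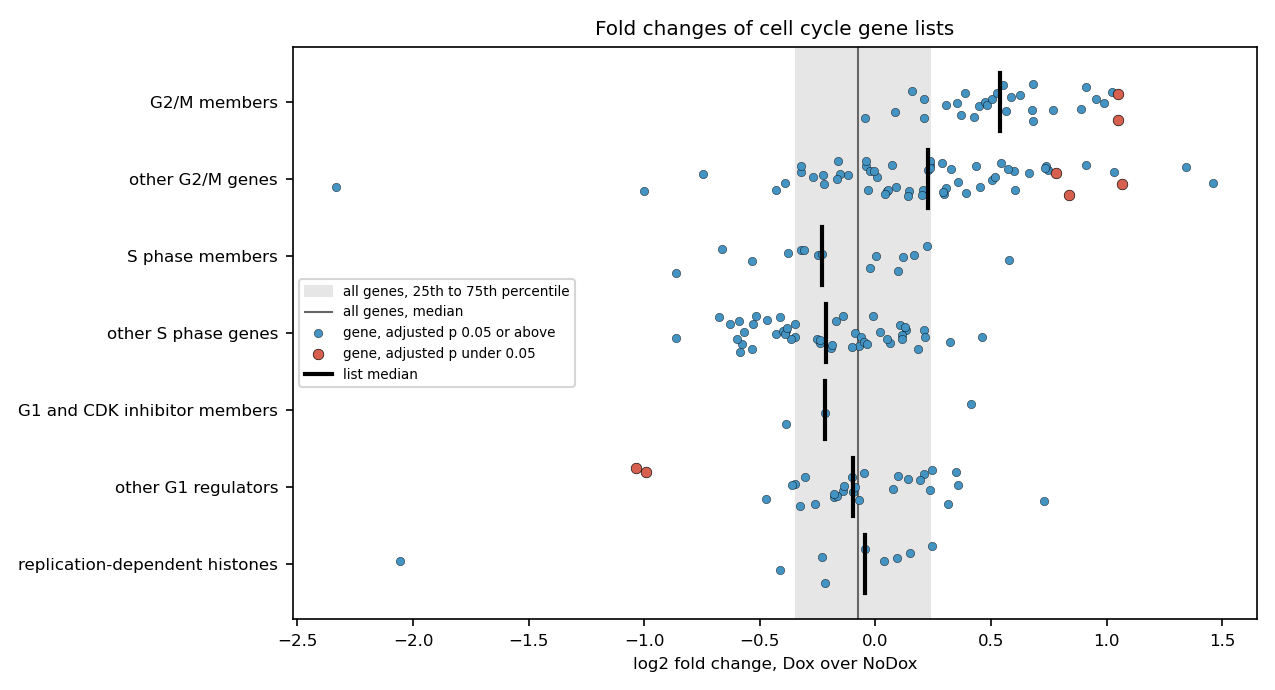
Log2 fold change, Dox over NoDox (x axis), of each measured gene (points) in each cell cycle list (rows), with the list median as a black bar and the middle range of all genes in grey. The medians of the G2/M members (0.54) and other G2/M genes (0.23) lie to the right of that of all genes, and those of the S phase lists (-0.23 and -0.22) to its left.

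The probe sets of a gene did not always give the same value. Of the 68 G2/M probe sets 55 (80.9%) were above 0, as were 43.6% of all probe sets, and their median was 0.38. At a signal level of at least 200 units, 42 of 49 (85.7%) were above 0, as were 39.3% of all probe sets at that level. Of the 38 S phase probe sets 13 were above 0 and 25 below. Of 22 G2/M genes with several probe sets, 13 had them all on one side of 0, 12 of these upward, and the S phase counts were 4 of 11, with 1 upward. These last counts were not made over all genes.

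For Cdc20, which activates the anaphase-promoting complex, the choice of probe set decided the call, as became clear only after its values were seen. The probe set 1416664_at had ratios of 1.49, 1.87 and 1.15 in the Dox arrays and of 0.926 and 1.07 in the NoDox arrays, and a log2 fold change of 0.57 ± 0.20 (SE; limma adjusted p = 0.196). The probe set 1439377_x_at had 1.88, 2.43 and 1.66 against 0.895 and 1.10, and a log2 fold change of 0.98 ± 0.19 (SE). For both only a lower bound of the signal was known, so which is the brighter is not known. With the second in place of the first, Cdc20 passed (adjusted p = 0.0287). Prc1, which bundles the midzone microtubules, was at 0.39 by 1423775_s_at and at 1.24 by 1423774_a_at. With the probe set of highest mean log2 ratio for each gene, Prc1 passed (adjusted p = 0.0428) and Cenpa did not (0.264). Nek2 was at 0.91 by 1437580_s_at, at 0.61 by 1443999_at, at 0.26 by 1417299_at and at -0.54 by 1437579_at. By 1437579_at the ratios were 0.895, 0.706 and 0.510 in the Dox arrays and 0.887 and 1.11 in the NoDox arrays, with overlap.

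A letter in a probe set's name marks probes shared by transcripts of 1 gene (_a) or that may also match other sequences (_s, _x). Such probe sets stood for 12 of the 30 G2/M members (40%), against 20.7% of all genes. They stood for all 5 genes that rose among the 89 measured G2/M genes of both lists, and for 67 of the 245 that rose among all genes. Of the 5, Cenpa and Cks1b were read by _a probe sets, and Kif2c, Kif22 and Incenp by _x probe sets. With probe sets of plain name only, Cenpa was at 0.84, Kif2c at 0.45, Incenp at 0.55, Cks1b at 0.52 and Kif22 at -0.07, and 0 of the 5 passed. In that fit 25 G2/M members had a probe set, and 21 of them were above 0. By limma, 8 of the 25 were higher at an unadjusted p under 0.05, against 14 of 30 in the main fit. Of all genes, 2786 of 16591 were under that limma p in either direction, against 3123 of 18193 in the main fit. The median over all genes was -0.09 with plain names. The 18 G2/M members whose probe set in the main fit already had a plain name had a median of 0.52, and 17 of them were above 0.

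**Figure D4:**
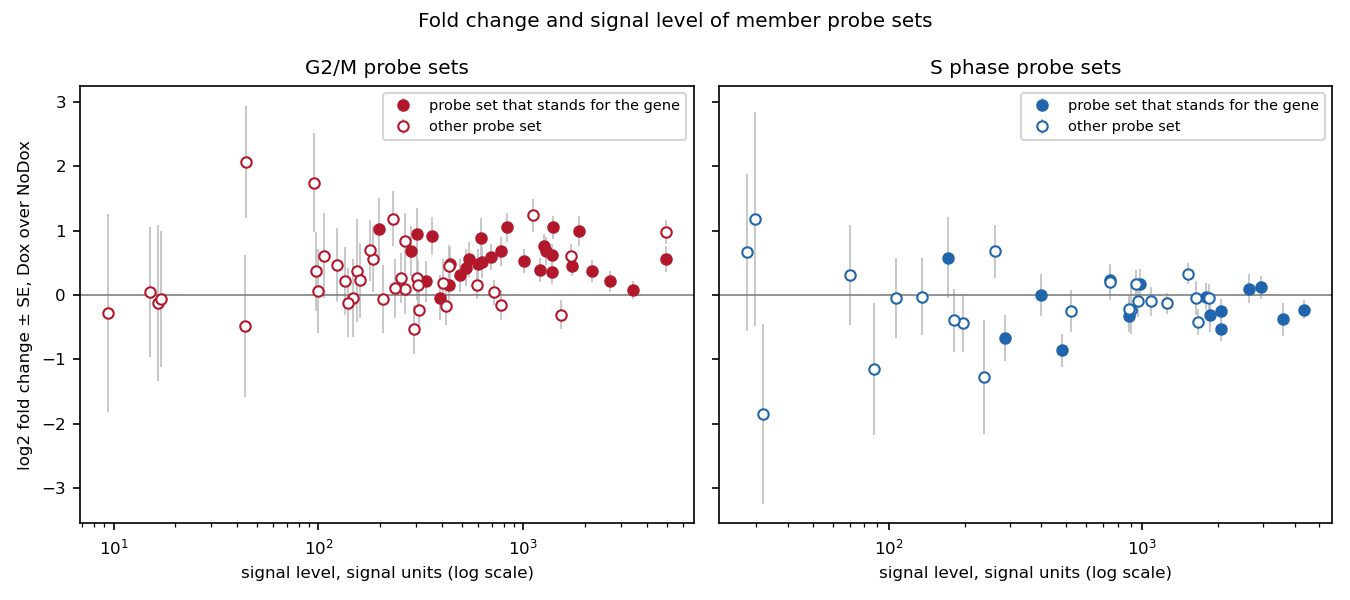
Log2 fold change with its standard error (y axis) against the signal level in signal units (x axis, log scale) for each probe set of the G2/M members (left) and S phase members (right). Filled points stand for the gene and open points are its other probe sets, and most G2/M points above 200 units lie above 0, with wider errors at low signal.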

How the data were processed

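Total RNA of 5 esophagus arrays (3 Dox, 2 NoDox, grouped by diet) was labelled by random priming, per the labels' protocols. The authors made signals with Microarray Suite 5.0 and normalized them in GeneSpring 7.3.1, per the labels. Each deposited value is a ratio, since the NoDox values sum to 2, within 0.0001, in 45099 of 45101 probe sets, which shows a common NoDox mean and not the pair-wise control that the labels describe. Signal levels and detection calls are not part of them.

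The level was recovered from the ratios, taken as signals in steps of 0.1 units (the step was assumed), after estimating 1 scale per array. It was found for 40027 of 45098 probe sets (88.8%) and for 10 of 4000 shuffled ones (0.25%). On 5000 simulated probe sets 96.77% of recovered levels were right. Other probe sets received a lower bound. Each of 18193 genes was read from its probe set with the highest level, out of 34945 probe sets with 1 symbol (932 had several, 9160 none and 64 were controls).

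For all genes together, log2 ratios were fitted in R 4.3.3 with limma 3.58.1 (lmFit and eBayes, trend on level), two-sided, with Benjamini-Hochberg adjustment over all genes and a threshold of 0.05, with no offset and no filter. The fit had 3 residual and 5.96 prior degrees of freedom. Tested on simulated data, it called 0 of 18193 unchanged genes, and found 34 of 200 genes changed 2-fold (2 false calls), 122 of 200 changed 4-fold (4 false) and 146 of 200 changed 8-fold (12 false). The number of arrays limits the precision. Other scalings, offsets, probe set choices, variance models, weights, thresholds, a replicate block, a level filter and fits without 1 array were tried.

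Members and lists were chosen with earlier results of these data known. Values in every array are given for members past the threshold and the 12 of smallest p; of other lists, genes past the threshold and the 3 of smallest p were named. Cdc25a, written in 2 lists, was counted with S phase. Promoters came from RefSeq (GRCm38.p6), where 40 members matched by symbol, 3 with more than 1 window. The tables used pandas 2.3.3 and numpy 2.4.6 under Python 3.11.15; matplotlib 3.10.9 drew the plots.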

Additional observations from a re-analysis of the deposited data

How the results depend on the processing

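The medians of the G2/M and S phase members, and the difference between them, kept their direction and moved by less than the spread between Dox arrays under all 22 alternatives, and 0 members fell under any. The S phase median, -0.23 in the report, was nevertheless -0.10 with every probe set, -0.10 with probe sets of plain name and -0.02 with the probe set of highest mean log2 ratio, a shift just under that spread of 0.21. The medians over all genes or probe sets in these settings were -0.08, -0.09 and 0.06. With every probe set and with plain names the S phase median thus lay near that of all. The number of members that rose, 2 in the report, depended on the setting. It was 4 with each array centred on its median, 1 with quantile normalization, 1 with an offset of 64, 1 with the mean of all probe sets, 0 with probe sets of plain name, 0 without a trend, 0 with the trend on the mean log2 ratio, 5 with array weights, 5 at an adjusted p of 0.10, and 0 to 2 with 1 array left out. With the probe set of highest mean log2 ratio it was 3, Cdc20, Kif2c and Prc1, without Cenpa. The other cell cycle genes that rose, 3 in the report, were 0 with the mean of all probe sets, 0 with probe sets of plain name, 0 without a trend, 0 with the trend on the mean log2 ratio, 5 with array weights, 6 at an adjusted p of 0.10, and 0 to 3 with 1 array left out. Those that fell, 2 in the report, were 0 with centring, 0 with quantile normalization, 0 with the mean of all probe sets, 1 with every probe set, 1 with the probe set of highest mean log2 ratio, 0 without a trend, 0 with the trend on the mean log2 ratio, 0 with the arithmetic mean level (chosen after seeing the data) and 0 to 3 with 1 array left out. Fewer arrays enter the last of these fits. For the other settings the cause was not tested. Of all genes, the fit without a trend called 6 higher and 0 lower, and that with the trend on the mean log2 ratio 0 and 0, with 2414 and 2359 genes at an unadjusted p under 0.05. The fit with array weights called 442 of all genes higher and 481 lower, against 245 and 211 in the main fit.

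With probe sets of plain name Nek2 stood at -0.54 and Kif22 at -0.0705, and with the probe set of highest mean log2 ratio Pola1 stood at 0.436, each on the other side of 0. Of all genes 245 rose and 211 fell, 290 and 148 with centring, and 307 and 120 with quantile normalization. With centring 30 of 30 G2/M members were above 0, and 29 with quantile normalization.

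Arrays of the 2 groups share replicate numbers in their titles. Same-numbered arrays did not deviate together (correlations of 0.03 and 0.05). The 2 NoDox arrays mirror each other, so these correlations cannot decide whether the numbers pair arrays. With the replicate block, which leaves out the third Dox array, 7 members and 5 other cell cycle genes rose. In that fit 352 of all 18193 genes rose and 438 fell, against 245 and 211 in the main fit.

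Cdc20 also passed with the second of its lower-bound probe sets, an alternative chosen after seeing the data. Of 154 values under alternatives of the 7 named genes that passed, 91 kept the call, 62 lost it and 1 reversed.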
